A study of Mus musculus and Rattus norvegicus with 32 samples.

Results

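The genes of the calcineurin and NFAT pathway described here are Ppp3ca and Ppp3cb (catalytic subunits of calcineurin), Ppp3r1 (its regulatory subunit), Nfatc1, Nfatc2, Nfatc3 and Nfatc4 (the NFAT factors that calcineurin acts on), and the calcineurin inhibitors Rcan1, Rcan2 and Cabin1. They were chosen by gene symbol, and these 10 genes were found among 55487 mouse genes and 32883 rat genes. Calcineurin is a phosphatase that is switched on by calcium and calmodulin. In cardiomyocytes it removes phosphate from the NFAT factors, which then move to the nucleus, and this route is a classical driver of hypertrophic growth. RCAN proteins bind calcineurin and restrain it, and the short form of Rcan1 is transcribed from an internal start that NFAT itself can activate, so that Rcan1 RNA is widely used as a readout of calcineurin activity.

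METTL5 is an enzyme that methylates an adenosine of 18S ribosomal RNA, and the study asked what its loss or gain does to the heart under stress. The RNA data used here hold 8 groups of 4 libraries each, and the groups were compared in 4 pairs. The 1-month-old C57BL/6 hearts were labelled Ctrl and Mettl5-KO, a knockout in all cells. The 3-month-old C57BL/6 hearts were labelled Ctrl and Mettl5-cKO, in which Myh6-Cre removes floxed exons of Mettl5 in cardiomyocytes, so that other heart cells keep the gene. A further pair of C57BL/6 hearts, also labelled 3 months of age, was Ctrl and Mettl5-cKO 4 weeks after transverse aortic constriction (TAC), a surgery that puts pressure overload on the left ventricle. No hearts with a sham operation were part of the RNA data used here. The control mice were littermates, and whether they carried Cre or floxed alleles is not given in the sources used here. Neonatal rat ventricular myocytes (NRVMs) of Sprague Dawley pups were pre-plated for 1 h to reduce fibroblasts, transduced with adenovirus for GFP (AdGFP-PE) or for human METTL5 (AdMettl5-PE), and both groups were then treated with 20 µM phenylephrine (PE), an adrenergic agonist that induces hypertrophic growth, for 24 h. No NRVMs without PE were used here. The study also sequenced NRVMs with knockdown of METTL5 under PE, which are not among these libraries. Nothing in the labels says which libraries came from separate animals or cultures, so that the p-values measure the spread between these libraries.

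The total count of a library was 19899033 to 21804907 in the hearts and 14324700 to 18085339 in the NRVMs. The count of the whole Mettl5 gene did not separate the heart genotypes (log2 fold changes of 0.22, -0.18 and -0.04 at 1 month, at 3 months and after TAC), and the groups rest on their labels here. A count over the whole gene does not show whether the deleted exons were read, so that it is no check of the deletion. In NRVMs the rat Mettl5 count was higher in AdMettl5-PE, by 0.32 on the log2 scale. The virus carried human METTL5 and the reads were aligned to the rat genome, so that this count does not measure the forced expression. Cardiomyocyte markers were present in all 8 groups. Levels are given in CPM, the counts of a gene scaled to a common library size with edgeR's TMM factors, as mean ± SD of 4 libraries. Differences are log2 fold changes from edgeR's quasi-likelihood test with their standard error (SE), and an adjusted p is the Benjamini-Hochberg value over all genes tested. A gene is said to have risen or fallen where this adjusted p was under 0.05. RNA of a whole heart or culture cannot tell fewer cells of a type from less RNA per cell.

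The mouse Rcan1 gene (ENSMUSG00000022951) lies on the minus strand of chromosome 16, from 92391953 to 92470867 in GRCm38, with 7 annotated transcripts. It overlaps Gm46555 on the other strand. RefSeq gives it 2 starts that are 66.1 kb apart, and the bases before each are shown because Rcan1 has the largest change among the 10 genes and because NFAT is known to act on the internal start. The distal start follows chr16:92466170-92466419. The internal start follows chr16:92400079-92400328, a stretch that lies in an intron of the transcripts annotated at the distal start. The 250 bases before each start (RefSeq, GRCm38.p6, minus strand, written in the direction of transcription) read as follows, with capitals marking GGAAA, the core to which NFAT binds, or its reverse complement TTTCC.
Rcan1 distal start: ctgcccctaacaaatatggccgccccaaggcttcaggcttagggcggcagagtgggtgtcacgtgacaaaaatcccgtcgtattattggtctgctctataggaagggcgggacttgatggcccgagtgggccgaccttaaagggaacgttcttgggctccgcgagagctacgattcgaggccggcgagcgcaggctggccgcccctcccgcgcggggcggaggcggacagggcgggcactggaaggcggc
Rcan1 internal start: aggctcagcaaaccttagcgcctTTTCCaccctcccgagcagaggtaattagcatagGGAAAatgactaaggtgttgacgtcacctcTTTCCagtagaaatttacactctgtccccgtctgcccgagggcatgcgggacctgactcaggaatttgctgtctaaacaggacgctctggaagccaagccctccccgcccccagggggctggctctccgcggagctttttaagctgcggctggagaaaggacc
The internal window held 3 such matches, which begin 227, 193 and 163 bases before the start, and the distal window held 0. At least 3 matches were present in 6.39% and at least 1 in 55.6% of the 32851 RefSeq windows of this length. A window of each of Nfatc2, Ppp3cb and Nfatc4 held 3 matches as well, so that this number is not particular to Rcan1 among the 10 genes. The internal window also held 1 match to TGANTCA, the AP-1 motif, which reads the same on both strands, 110 bases before the start and without overlap with the GGAAA matches. This motif was present in 6.75% of all windows, and it together with at least 3 GGAAA matches in 0.457%. This combination was set to what the internal window held, so that its share is no test of that window. A window of Rcan2 held 1 match to TGANTCA too, without a GGAAA match. A match is a stretch of letters and not a measured binding site. The counts are per gene, so that RNA from the 2 starts cannot be told apart.

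Rcan2 had the highest RNA level per kb of exon in the hearts of each group. It was followed by Rcan1 and Ppp3r1, then by Ppp3ca and Ppp3cb, then by Cabin1 and Nfatc1, and last by the other NFAT factors. At 3 months the control hearts held 54.0 ± 10.4 CPM per kb of Rcan2. In the same hearts Ppp3r1 was at 12.3 ± 1.90 and Rcan1 at 12.1 ± 2.75 CPM per kb, which lay within the spread of each other. Ppp3ca was at 5.83 ± 0.273 and Ppp3cb at 4.92 ± 0.779 CPM per kb. Among the NFAT factors, Nfatc1 was at 2.47 ± 0.207, Nfatc2 at 1.62 ± 0.286, Nfatc3 at 1.51 ± 0.202 and Nfatc4 at 0.760 ± 0.183 CPM per kb. Nfatc2 and Nfatc3 did not differ beyond their spread, and neither did Nfatc1 and Cabin1 (2.38 ± 0.331 CPM per kb). Nfatc4, a factor known from work on hypertrophy, was the lowest of the 10 genes in each heart group. The exon length is the union over all annotated transcripts. After TAC, Rcan1 stood at 18.1 ± 1.88 CPM per kb in the Ctrl hearts and at 49.1 ± 14.5 CPM per kb in the Mettl5-cKO hearts, where Rcan2 stood at 63.0 ± 5.24 CPM per kb.

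**Figure D1:**
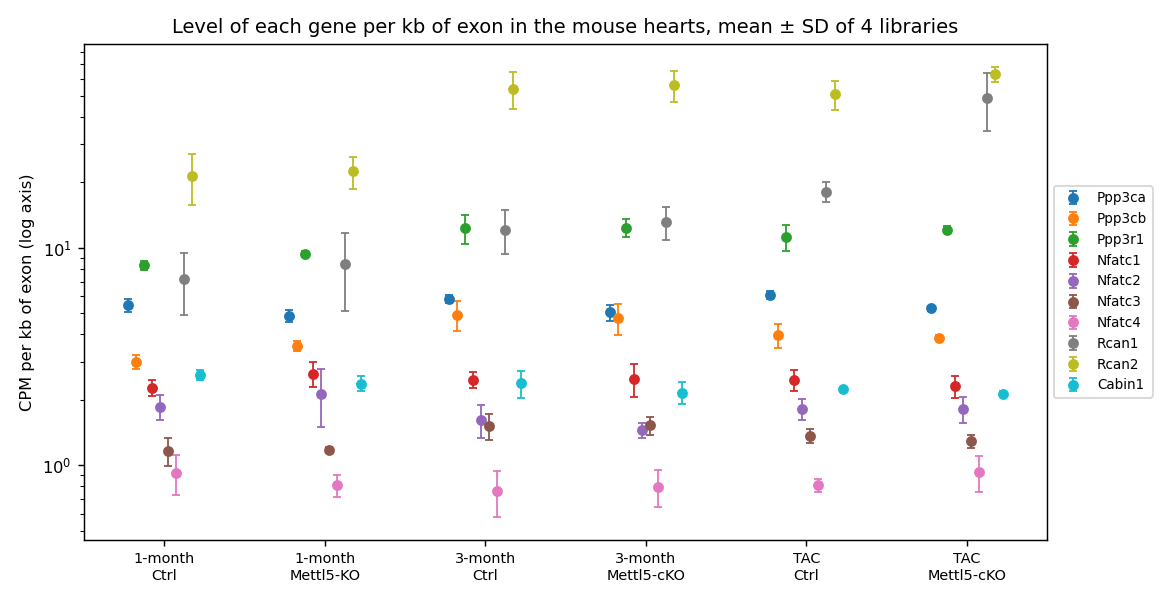
Mean level per kb of exon (CPM per kb, log axis) of the 10 genes in the 6 heart groups, with bars for the SD of 4 libraries. Rcan2 is at the top and Nfatc4 at the bottom of each group, and Rcan1 moves from 18.1 to 49.1 CPM per kb between the TAC groups.

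Rcan1 rose in the Mettl5-cKO hearts after TAC, and it was the only one of the 10 genes that did so or fell. The 4 TAC Ctrl libraries held 54.1, 64.4, 51.5 and 53.5 CPM of Rcan1. The 4 TAC Mettl5-cKO libraries held 204, 173, 114 and 115 CPM. Each Mettl5-cKO library was above each Ctrl library, and the Mettl5-cKO libraries fell into a higher and a lower pair. The means were 55.9 ± 5.81 and 151 ± 44.6 CPM (SD, n = 4), a fold of 2.71. This was a log2 fold change of 1.44 (SE 0.191, 95% confidence interval 1.01 to 1.87, adjusted p = 0.00621 by edgeR's quasi-likelihood test), and Rcan1 ranked 66th of 16340 genes by p. An exact permutation test (two-sided) over all 70 ways to split the 8 libraries into groups of 4 gave p = 0.0286. This is the smallest p it can give here. It arises whenever the groups do not overlap, as was the case for 18.6% of all genes tested. Adjusted by Benjamini-Hochberg over the 10 genes, the p of this permutation test was 0.143. Of all genes tested, 12.7% were called in this comparison and 6.57% were called higher, and 1 of the 10 genes described here was called. At an unadjusted p under 0.05 there were 3 of the 10 (Rcan1, Rcan2 and Ppp3ca), beside 31% of all genes. Leaving out single libraries kept the log2 fold change of Rcan1 between 1.26 and 1.56 and its adjusted p between 0.000696 and 0.0288 in edgeR.

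The other inhibitors did not pass the test after TAC. Rcan2, a relative of Rcan1 that also inhibits calcineurin, was at 264, 225, 180 and 221 CPM in the TAC Ctrl libraries and at 289, 295, 275 and 243 CPM in the TAC Mettl5-cKO libraries. The groups overlapped in 1 library of each. Rcan2 had a log2 fold change of 0.31 (SE 0.117, unadjusted p = 0.0259, adjusted p = 0.109 by edgeR). Its adjusted p was 0.046 without Mettl5-cKO library 4 and ranged from 0.0409 to 0.245 over 13 alternative fits. Within each library, Rcan1 made up 17.0 to 22.3% of the summed Rcan1 and Rcan2 counts in TAC Ctrl and 29.3 to 41.4% in TAC Mettl5-cKO, a share that does not depend on how libraries are scaled. The lengths of the 2 genes are not divided out of this share. Cabin1, which binds calcineurin and also the MEF2 factors, was at 27.3 ± 0.493 CPM in TAC Ctrl and 25.99 ± 0.817 CPM in TAC Mettl5-cKO, a log2 fold change of -0.07 (interval -0.21 to 0.07).

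Of the subunits of calcineurin, Ppp3ca came closest to a call after TAC. The TAC Ctrl libraries held 58.3, 60.2, 64.2 and 60.8 CPM of Ppp3ca and the TAC Mettl5-cKO libraries 54.0, 52.9, 50.7 and 52.7 CPM. The groups did not overlap, with each Mettl5-cKO library below each Ctrl library, as was the case in either direction for 18.6% of all genes tested. For Ppp3ca this was a log2 fold change of -0.21 (SE 0.0627, unadjusted p = 0.00754, adjusted p = 0.0548 by edgeR). Over 13 alternative fits the adjusted p ranged from 0.0142 (DESeq2's Wald test, -0.19) to 0.588 (scaling by library size alone, -0.07). Ppp3cb was at 34.9 ± 4.39 CPM in TAC Ctrl and 33.9 ± 1.13 CPM in TAC Mettl5-cKO, and Ppp3r1 at 36.2 ± 5.03 and 39.2 ± 1.43 CPM. Their log2 fold changes were -0.04 (interval -0.25 to 0.17) and 0.12 (interval -0.11 to 0.34).

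None of the NFAT factors was called after TAC, and their adjusted p-values in edgeR lay between 0.375 and 0.973. Nfatc1, which in the heart is best known from the endocardium and the valves, was at 18.5 ± 2.098 CPM in TAC Ctrl and 17.2 ± 1.97 CPM in TAC Mettl5-cKO, a log2 fold change of -0.10 (interval -0.35 to 0.15). Nfatc2 was at 19.3 ± 2.101 and 19.2 ± 2.63 CPM. Nfatc3 was at 16.01 ± 1.21 and 15.2 ± 1.03 CPM. The groups overlapped for each of the 4 factors. Nfatc4 had the widest interval, from -0.12 to 0.53 around a log2 fold change of 0.20, at 4.70 ± 0.334 and 5.40 ± 1.01 CPM. Over the 10 genes the median log2 fold change was -0.03, beside -0.0035 over all genes tested.

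**Figure D2:**
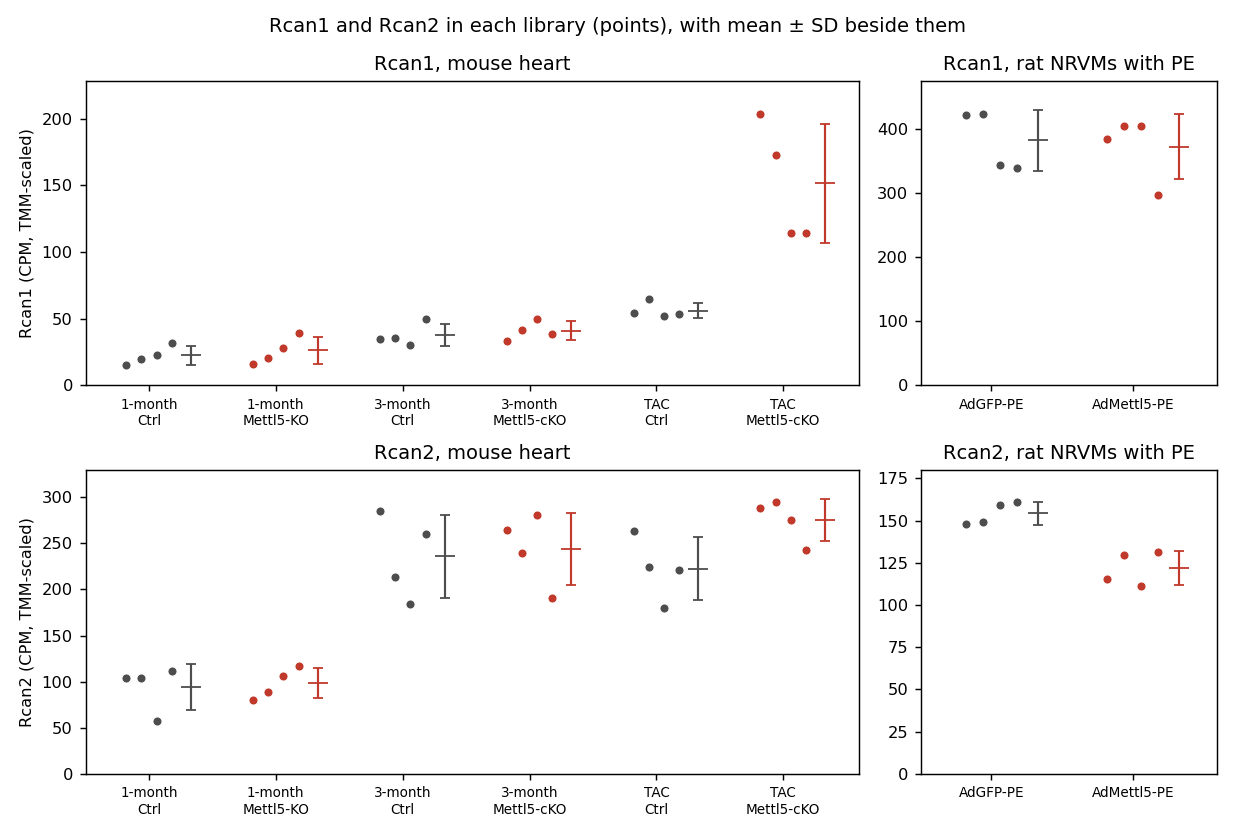
Rcan1 (top) and Rcan2 (bottom) in CPM for each library (points) of the 6 heart groups and the 2 NRVM groups, with the mean and SD of 4 libraries beside them and the control group of each pair in grey. The TAC Mettl5-cKO libraries hold 114 to 204 CPM of Rcan1, above each other heart library, whereas Rcan2 overlaps between the groups of each heart pair.

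Markers of several cell types differed between the TAC groups as well. The summed CPM of 9 fibroblast markers was 794 to 1031 in TAC Ctrl and 1213 to 3323 in TAC Mettl5-cKO, and 7 of the 9 were called higher. The sum of 9 cardiomyocyte markers was 36210 to 39950 in TAC Ctrl and 25710 to 33340 in TAC Mettl5-cKO, with 2 called lower. Of the 8 endothelial and endocardial markers 5 were called lower (sums of 678 to 791 and of 481 to 611 CPM), and of the 8 macrophage markers 2 were called higher (sums of 190 to 250 and of 252 to 337 CPM). In the order in which the Rcan1 values of TAC Mettl5-cKO are given above, the fibroblast sums of these libraries were 3323, 2378, 2320 and 1213 CPM. The cardiomyocyte sums of the same libraries were 27240, 25710, 26120 and 33340 CPM. Library 4 thus had the lowest fibroblast sum and the highest cardiomyocyte sum of its group. None of the 9 cardiomyocyte markers and none of the 9 fibroblast markers was at 0 throughout a TAC group. The part of these cell types in the Rcan1 difference was not tested.

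Without TAC, Rcan1 did not differ between the genotypes beyond the spread of the libraries. At 3 months the Ctrl hearts held 34.4, 35.6, 30.2 and 49.7 CPM and the Mettl5-cKO hearts 32.9, 41.5, 49.9 and 38.3 CPM of Rcan1. The groups overlapped over most of their range. For Rcan1 this was a log2 fold change of 0.12 (SE 0.171, interval -0.27 to 0.50, adjusted p = 0.998 by edgeR). At 1 month, Rcan1 ranged from 15.2 to 31.9 CPM in Ctrl and from 16.1 to 39.3 CPM in Mettl5-KO, with means of 22.3 ± 7.05 and 25.97 ± 10.2 CPM (SD, n = 4). This was the widest relative spread of the 10 genes in both 1-month groups, and the log2 fold change of 0.22 (SE 0.297, interval -0.45 to 0.89) became -0.05 without Mettl5-KO library 4.

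Whether the genotype difference of Rcan1 was larger after TAC than at 3 months was tested as an interaction over the 16 libraries of both pairs. It exceeded the log2 fold change at 3 months by 1.34 (SE 0.278, interval 0.75 to 1.93, unadjusted p = 0.000206). Rcan1 had the 28th smallest p of 17070 genes, but the adjusted p of edgeR's test was 0.123. Over all genes 1 was called (0.00586%), and none of the 10 genes described here was. At an unadjusted p under 0.05, Rcan1 was the only one of the 10, beside 11.8% of all genes. DESeq2's Wald test called it with an adjusted p of 0.0022, and so did edgeR without TAC Mettl5-cKO library 4 (adjusted p = 0.00756). Over 21 alternative fits this adjusted p ranged from 0.0022 to 0.274. The interaction of the other 9 genes lay between -0.10 and 0.27.

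Between the control groups, Rcan1 was at 37.5 ± 8.48 CPM at 3 months and at 55.9 ± 5.81 CPM after TAC, each scaled within its own pair. In the fit of all 16 libraries the log2 fold change of TAC Ctrl over 3-month Ctrl was 0.57 (SE 0.197, interval 0.15 to 0.99, unadjusted p = 0.0106, adjusted p = 0.157 by edgeR), a fold of 1.49. None of the 10 genes was called here, with 0.516% called over all genes, and at an unadjusted p under 0.05 Rcan1 and Ppp3cb (-0.31, adjusted p = 0.23) passed, 2 of 10 beside 17.6% of all genes. The surgery and the table in which the libraries were deposited cannot be told apart in this comparison.

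The calcineurin subunits and NFAT factors gave no call at 1 month or at 3 months. Over all genes 0.00612% were called at 1 month and 0.0732% at 3 months. At an unadjusted p under 0.05 there was 1 of the 10 genes at each age, beside 4.57% of all genes at 1 month and 7.05% at 3 months. DESeq2's Wald test also called 0 of the 10. At 1 month this gene was Ppp3cb, which was at 27.5, 28.1, 24.0 and 26.0 CPM in Ctrl and at 32.5, 29.0, 31.3 and 32.1 CPM in Mettl5-KO. Its groups did not overlap, and its log2 fold change was 0.24 (SE 0.0900, unadjusted p = 0.0243, adjusted p = 0.973 by edgeR). Ppp3r1 did not overlap either (25.5 to 28.5 and 29.1 to 31.3 CPM), with a log2 fold change of 0.17. Of all genes tested at 1 month, 3.01% did not overlap. At 3 months the gene was Ppp3ca, at 56.1 to 61.8 CPM in Ctrl and 46.6 to 54.8 CPM in Mettl5-cKO, where the log2 fold change was -0.21 (SE 0.0866, unadjusted p = 0.0377, adjusted p = 0.669 by edgeR). Non-overlapping groups were seen for 4.23% of all genes at 3 months. Ppp3ca had log2 fold changes of -0.16, -0.21 and -0.21 at 1 month, at 3 months and after TAC, and none of the 3 passed the test. These 3 sets of libraries share no control samples. Rcan1, Rcan2, Ppp3r1 and Cabin1 also kept the same direction over these pairs, so that this is not particular to Ppp3ca.

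The NFAT factors at these ages ranged from -0.18 (Nfatc4) to 0.21 (Nfatc1) at 1 month and from -0.16 (Nfatc2) to 0.07 (Nfatc4) at 3 months in their log2 fold changes. Rcan2 was at 93.9 ± 24.8 CPM in Ctrl and 98.2 ± 16.5 CPM in Mettl5-KO at 1 month, and at 236 ± 45.3 CPM in Ctrl and 244 ± 39.2 CPM in Mettl5-cKO at 3 months. Each of the older hearts held more Rcan2 than each of the younger ones, with each pair scaled by itself. That difference was not tested, since age and table cannot be told apart. Cabin1 had log2 fold changes of -0.13 and -0.14 at 1 and 3 months. Over all genes the median SE of the difference was 0.175 at 1 month and 0.157 at 3 months (log2 scale), so that small differences were not detectable with these libraries.

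**Figure D3:**
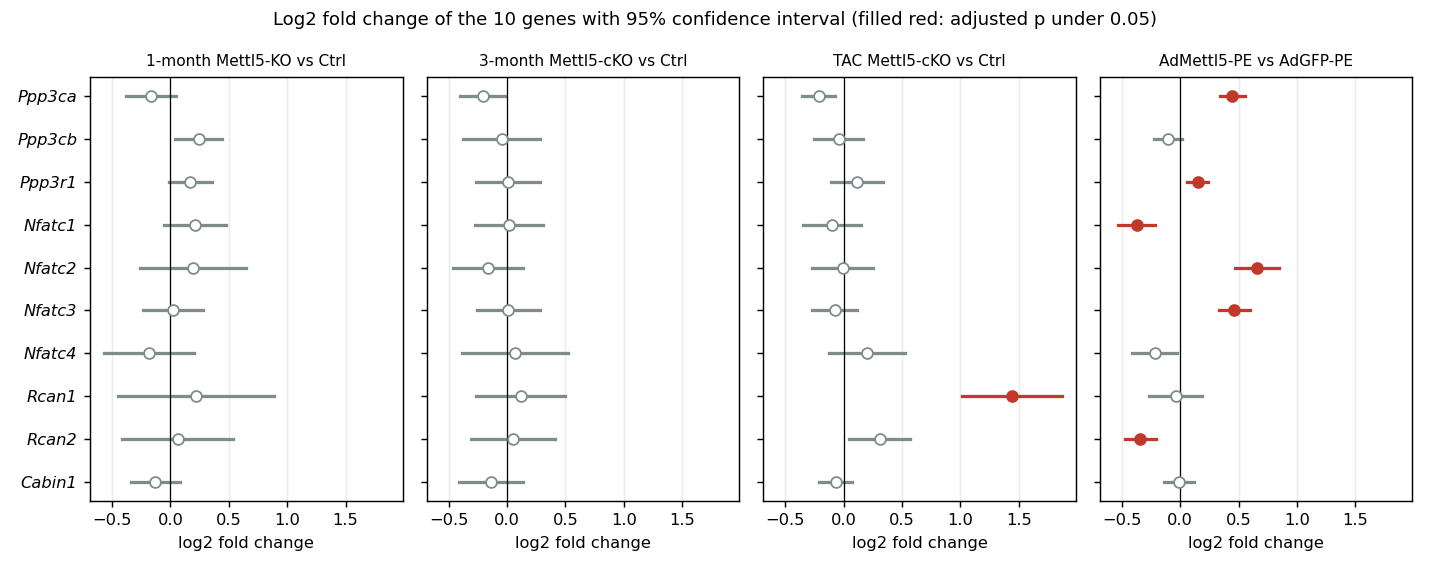
Log2 fold change (points) with the 95% confidence interval (lines) of the 10 genes in the 4 pairs of groups, filled red where edgeR's adjusted p was under 0.05. After TAC the interval of Rcan1 alone lies above 1, and in NRVMs 6 genes are called with log2 fold changes between -0.37 and 0.66.

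The genes whose levels ran most like Rcan1 over the 24 heart libraries, after centring each pair of groups on its own mean, were Chpf (Pearson r 0.923), Grk5 (0.904), 2310057M21Rik (0.886), Uck2 (0.880) and Pmepa1 (0.876), out of 15543 genes. Grk5 is a kinase of G protein-coupled receptors, Chpf takes part in the making of chondroitin chains, and Uck2 phosphorylates uridine and cytidine. All 5 were called higher in TAC Mettl5-cKO, with log2 fold changes from 0.75 (Chpf) to 1.75 (Uck2), beside 6.57% of all genes tested. These libraries weigh most in the correlation, so that the calls largely follow from how the 5 genes were picked. Among the other genes of the pathway, Rcan2 had r = 0.515 and Ppp3ca r = -0.632 with Rcan1, and the remaining 7 lay between -0.348 and 0.284. The points share their library and its scaling.

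In NRVMs under PE, 6 of the 10 genes differed with forced METTL5, and Rcan1 was not among them. Ppp3ca, Ppp3r1, Nfatc2 and Nfatc3 rose in AdMettl5-PE, and Rcan2 and Nfatc1 fell. The changes were small, and none exceeded 1 on the log2 scale, as the calls of 5.85% of all genes did. Of all 15041 genes tested, 52.8% were called in this comparison, 27.1% higher and 25.7% lower, so that 6 of 10 is near the share of all genes. The groups did not overlap for the same number of genes, 6 of 10, where 48.4% of all genes did not. The median log2 fold change of the 10 genes was -0.02, beside -0.0022 over all genes.

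Rcan1 was at 423, 425, 345 and 339 CPM in the AdGFP-PE libraries and at 384, 405, 406 and 297 CPM in the AdMettl5-PE libraries. The groups overlapped, and each of them held libraries on either side of the other's mean. The AdGFP-PE libraries fell into a higher pair (libraries 1 and 2) and a lower pair (libraries 3 and 4). Rcan1 had a log2 fold change of -0.04 (SE 0.104, interval -0.27 to 0.19, adjusted p = 0.788 by edgeR), and it turned to 0.10 with scaling by library size alone. Rcan2 was at 148, 149, 159 and 161 CPM in AdGFP-PE and at 116, 130, 111 and 131 CPM in AdMettl5-PE. Each AdMettl5-PE library lay below each AdGFP-PE library. Rcan2 fell with a log2 fold change of -0.34 (SE 0.0598, adjusted p = 0.000485 by edgeR). Cabin1 was at 55.5 ± 3.36 and 55.0 ± 3.13 CPM, a log2 fold change of -0.01 (interval -0.14 to 0.11).

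Of the catalytic subunits, Ppp3ca rose in NRVMs and Ppp3cb did not pass the test. Ppp3ca was at 44.2, 45.3, 44.2 and 43.7 CPM in AdGFP-PE and at 57.6, 58.8, 64.3 and 61.2 CPM in AdMettl5-PE. Each AdMettl5-PE library was above each AdGFP-PE library. Ppp3ca rose with a log2 fold change of 0.45 (SE 0.0487, adjusted p = 1.22e-05 by edgeR), whereas Ppp3cb was at 57.7 ± 3.43 and 53.7 ± 2.28 CPM with -0.10 (interval -0.22 to 0.02, adjusted p = 0.14 by edgeR). The difference between the 2 genes was not tested. Ppp3r1, the regulatory subunit, rose from 141 ± 4.89 to 156 ± 3.17 CPM, a log2 fold change of 0.15 (SE 0.0417, adjusted p = 0.00944 by edgeR).

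Among the NFAT factors, 2 rose and 1 fell in AdMettl5-PE. Nfatc2 had the largest relative change of the 10 genes in NRVMs, at 5.34, 5.54, 5.60 and 5.99 CPM in AdGFP-PE and at 9.24, 8.93, 9.26 and 8.08 CPM in AdMettl5-PE. Its counts were low, from 90 to 141 per library, and its groups did not overlap. Nfatc2 rose with a log2 fold change of 0.66 (SE 0.0878, adjusted p = 5.89e-05 by edgeR). Nfatc3 was at 66.8, 75.3, 82.0 and 79.5 CPM in AdGFP-PE and at 99.8, 109, 105 and 105 CPM in AdMettl5-PE, a log2 fold change of 0.46 (SE 0.0623, adjusted p = 6.18e-05 by edgeR). Nfatc1 went the other way, from 25.1, 24.5, 24.1 and 23.7 CPM to 21.6, 17.2, 17.8 and 18.7 CPM, a log2 fold change of -0.37 (SE 0.0724, adjusted p = 0.000997 by edgeR). For both genes the groups did not overlap. Nfatc4 was at 24.7 ± 2.37 and 21.2 ± 2.36 CPM, with a log2 fold change of -0.22 (SE 0.0901, adjusted p = 0.0581 by edgeR), which missed the threshold. Its adjusted p ranged from 0.0187 to 0.52 over 13 alternative fits and was under the threshold with DESeq2 (0.0342), without AdGFP-PE library 2 (0.0269) and without AdMettl5-PE library 4 (0.0187).

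**Figure D4:**
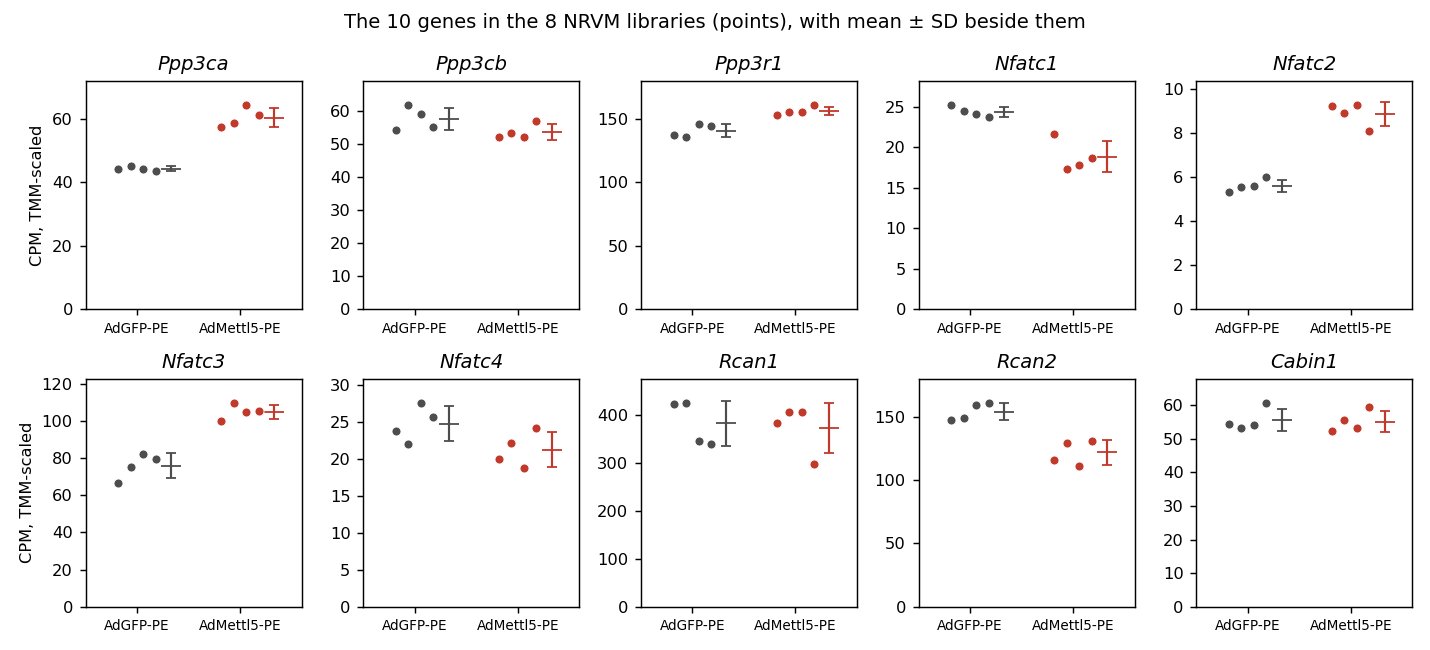
Level of each of the 10 genes in CPM in the 4 AdGFP-PE (grey) and 4 AdMettl5-PE (red) libraries, with the mean and SD beside the points and axes that start at 0. The points of the groups are apart for Ppp3ca, Ppp3r1, Nfatc1, Nfatc2, Nfatc3 and Rcan2, and they overlap for Rcan1, which lies between 297 and 425 CPM.

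Markers of cardiomyocytes and fibroblasts differed between the NRVM groups as well, where 25.7% of all genes were called lower. The summed CPM of the 8 cardiomyocyte markers listed for the rat was 16170 to 18740 in AdGFP-PE and 7280 to 8010 in AdMettl5-PE, and all 8 were called lower. Of the 8 fibroblast markers listed 7 were called lower, with sums of 12740 to 13420 and of 10210 to 11120 CPM. The smooth muscle and pericyte markers summed to 3286 to 4098 and to 3821 to 4322 CPM. None of the cardiomyocyte or fibroblast markers was at 0 in either group, and 5 of the 9 markers of T and B cells were at 0 in each. The part of the cell types in the changes of the 10 genes was not tested.

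The rest of the pathway was read from 45 genes in 6 lists: 4 relatives of the genes above, 3 calmodulin genes, 7 calcium channels and sensors, 14 scaffolds and other inhibitors of calcineurin, 6 immunophilins and 11 NFAT kinases. At 1 month and at 3 months none of the 41 genes tested was called. After TAC 1 of 43 was called higher and 3 lower, with a median log2 fold change of -0.01, beside 6.57% higher and 6.1% lower of all genes. Tesc, a calcium-binding protein related to the regulatory subunit of calcineurin, fell from 52.4 ± 3.12 to 28.2 ± 3.51 CPM, a log2 fold change of -0.89 (SE 0.0968, adjusted p = 0.00286 by edgeR). Among the immunophilins, which bind the calcineurin inhibitor FK506 or serve as chaperones of steroid receptors, Fkbp4 fell (-0.75, adjusted p = 0.0202 by edgeR) and Fkbp5 rose (0.77, adjusted p = 0.0318 by edgeR). Nfat5, the NFAT relative that calcineurin does not regulate, fell from 45.2 ± 2.35 to 37.8 ± 2.31 CPM (-0.26, adjusted p = 0.0485 by edgeR). None of the 11 NFAT kinases, which return NFAT to its phosphorylated form, was called after TAC.

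In NRVMs 17 of the 44 pathway gene entries tested were called higher and 11 lower, beside 27.1% higher and 25.7% lower of all genes. Their median log2 fold change was 0.03. The NFAT kinases had 6 higher and 1 lower of 11, the calcium channels and sensors 4 higher and 1 lower of 7, the scaffolds and inhibitors 4 higher and 6 lower of 14, and the immunophilins 3 higher and 1 lower of 6. Of the relatives of the 10 genes 1 of 3 was called lower, and so was 1 of 3 calmodulin entries, which carry 2 gene symbols in the rat. Myoz2, a calcineurin-binding protein of the sarcomere, fell from 633 ± 43.7 to 341 ± 22.4 CPM, a log2 fold change of -0.89 (SE 0.0623, adjusted p = 3.52e-07 by edgeR). The log2 fold changes of the 8 cardiomyocyte markers lay between -2.34 and -0.63, with a median of -1.07. The part of the cell types in the fall of Myoz2 was not tested. Tesc rose by 0.50 (adjusted p = 6.74e-06 by edgeR), Fkbp5 by 0.52 (adjusted p = 1.24e-05 by edgeR), and Homer3, a scaffold protein that competes with calcineurin for NFAT, by 0.41 (adjusted p = 1.44e-05 by edgeR). No pathway gene was called in the interaction of genotype and TAC or between the control groups, where 1 and 88 of all genes were.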

How the data were processed

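The authors aligned the reads to GRCm38 or Rnor_6.0 with HISAT2 (2.0.4) and made estimated counts per gene with StringTie (2.1.4), per the labels and the methods of the study. The deposited values are unscaled whole numbers, so rounding changed nothing. Whether strand was used is not given in the sources used here, and reads of overlapping genes cannot be told apart. Single samples could be assigned to the columns of the 1-month table. Columns of the other tables name a group only, and libraries are numbered in the order of the column names. For each pair of groups, edgeR (4.0.16, in R 4.3.3) was run with filterByExpr (min.count 10, min.total.count 15), TMM, glmQLFit and glmQLFTest. The interaction and the comparison of control groups came from 1 fit of 16 libraries. Exact permutation tests used log2 CPM (prior count 2) over 70 labelings. The alternatives were DESeq2 1.42.0, its size factors, library size alone, other filters and thresholds, the replicate block and leaving out each library. Mouse positions and exon lengths came from the annotation for GRCm38. Of the 10 genes, 8 had RefSeq windows used here (13 windows). Nfatc1, on chromosome 18, was left out of this step, and Ppp3ca had no window.

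The 10 genes and the lists were chosen with earlier results of these data known. The text names all 10 genes, up to 4 called genes of the pathway lists per comparison, and the 5 genes most like Rcan1. Common biological coefficients of variation were 0.221 (1 month), 0.181 (3 months), 0.159 (TAC) and 0.0675 (NRVMs). The code was tested on simulated data. Libraries of a group were compared pairwise, and the smallest chi-square over its degrees of freedom was 2.16, so none was counted as a duplicate. In AdGFP-PE this value was 3.32 between libraries 1 and 2 and 3.06 between libraries 3 and 4. It was 8.73 to 11.4 between the other libraries of that group, and the cause was not tested.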

Additional observations from a re-analysis of the deposited data

Results flagged for a closer look

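In 80 sets of 4 libraries (10 genes in 8 groups), 2 held a library far from the other 3, where chance alone gives about 5%. Rcan2 was at 57.0 CPM in library 3 of the 1-month Ctrl hearts, and the other 3 libraries of that group held 104 to 111 CPM. Nfatc2 was at 15.8 CPM in library 4 of the 1-month Ctrl hearts, and the others held 20.8 to 21.3 CPM. Library 3 of that group had the lowest TMM factor of the 8 libraries at 1 month, 0.796, and library 4 had 0.918. Without library 3 the log2 fold change of Rcan2 at 1 month went from 0.06 to -0.11, and neither value passed the test (adjusted p = 0.981 and 0.99 by edgeR). The cause was not tested.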

How the results depend on the processing

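Rcan1 after TAC and the 6 genes called in NRVMs kept their direction and their call under each alternative test, scaling and filter and without any single library. At an unadjusted p under 0.05 the number of the 10 genes called became 1 at 1 month, 1 at 3 months, 3 after TAC, 1 for the interaction and 2 between the control groups, beside 4.57%, 7.05%, 31%, 11.8% and 17.6% of all genes. Requiring also an absolute log2 fold change over 1 left 0 in NRVMs. DESeq2 called 2 after TAC (Rcan1 and Ppp3ca) and 1 for the interaction (Rcan1). Library size alone called 2 after TAC (Rcan1 and Rcan2, 0.46). This scaling shifted the median log2 fold change of all genes to 0.14 after TAC and 0.13 in NRVMs. It turned Ppp3cb (0.11), Nfatc1 (0.040), Nfatc2 (0.13), Nfatc3 (0.075) and Cabin1 (0.081) after TAC, Ppp3cb (0.034), Rcan1 (0.0996) and Cabin1 (0.12) in NRVMs, Ppp3cb at 3 months (0.0064), Nfatc3 for the interaction (0.013) and Nfatc1 between the control groups (-0.0445), and the values turned after TAC and in NRVMs lay below that shift. Nfatc2 after TAC also turned to 0.0087 with DESeq2 and 0.0063 without a filter, and Nfatc1 between the control groups to -0.0032 with DESeq2. No other alternative of this kind turned a direction. Over all genes, the calls moved most with DESeq2 at 1 month (13 for 1), at 3 months (108 for 12), for the interaction (231 for 1) and between the control groups (519 for 88), without a filter at 3 months (1), after TAC (1052 for 2071) and between the control groups (21), and with library size alone between the control groups (47).

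When single libraries were left out, 1 to 2 of the 10 genes were called after TAC, 6 to 7 in NRVMs, 0 to 1 for the interaction and 0 to 0 in the other comparisons. The values that changed sign ranged as follows, and none of them passed the test in any of these fits. At 1 month Nfatc3 ranged from -0.0485 to 0.1217, Rcan1 from -0.0474 to 0.4478 and Rcan2 from -0.1103 to 0.1568. At 3 months Ppp3cb ranged from -0.1493 to 0.0479, Ppp3r1 from -0.0518 to 0.1102, Nfatc1 from -0.1172 to 0.0765, Nfatc3 from -0.0739 to 0.07, Nfatc4 from -0.0588 to 0.2024, Rcan1 from -0.0051 to 0.2831 and Rcan2 from -0.0519 to 0.1539. After TAC Ppp3cb ranged from -0.1022 to 0.0241 and Nfatc2 from -0.0805 to 0.0784, and in NRVMs Rcan1 from -0.0921 to 0.0573 and Cabin1 from -0.0506 to 0.0303. For the interaction Ppp3ca ranged from -0.0211 to 0.0496, Ppp3cb from -0.0789 to 0.1198, Nfatc1 from -0.1748 to 0.0288, Nfatc3 from -0.1312 to 0.0164 and Cabin1 from -0.0088 to 0.1493. Between the control groups Nfatc1 ranged from -0.0744 to 0.0648, Nfatc4 from -0.0346 to 0.2272, Rcan2 from -0.1866 to 0.0177 and Cabin1 from -0.1497 to 0.0103. The cause was not tested.

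At 1 month the replicate block called 0 of the 10 genes, as did the fit without it. Same-numbered libraries had correlations of 0.239, 0.12, -0.107 and 0.0782 in their deviations from the group means. These correlations do not settle whether the numbers pair the samples. Rcan1 increased with the library number in both groups, from 15.2 to 31.9 CPM in Ctrl and 16.1 to 39.3 CPM in Mettl5-KO. With the block its SE went from 0.297 to 0.101 (log2 fold change 0.19, unadjusted p = 0.1, adjusted p = 0.916 by edgeR). No paired analysis was possible in the other tables because their columns carry no replicate number of the labels in both groups.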

Other observations

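Tesc, which was lower in the Mettl5-cKO hearts after TAC, was also lower without TAC, at 60.6 ± 1.38 CPM in the 3-month Ctrl hearts and 43.6 ± 2.78 CPM in the 3-month Mettl5-cKO hearts (log2 fold change -0.47, SE 0.0768, adjusted p = 0.11 by edgeR), which missed the threshold. In NRVMs given the METTL5 virus, Tesc was higher than in AdGFP-PE. Fkbp5 had 24.8 ± 17.0 CPM in the 3-month Ctrl hearts and 54.5 ± 30.1 CPM in the 3-month Mettl5-cKO hearts, a log2 fold change of 1.14 with a wide spread (SE 0.479, adjusted p = 0.679 by edgeR). These 3-month values were picked out after they were seen.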
